A study of Mus musculus with 2 samples.

Results

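The imprinted Dlk1-Dio3 cluster of mouse chromosome 12 was examined through 7 genes, Dlk1, Meg3, Rtl1, Rian, B830012L14Rik, Mirg and Dio3. These were taken by name and not by any measured value, though with earlier results of these data known. Each gene had 1 record in the deposited table, a record being 1 gene with 1 transcript biotype, so the cluster held 7 of the 37178 records and 7 of the 29833 genes. Total RNA came from 2 biological replicates of F123 mouse embryonic stem cells (mESCs), an established male hybrid line from the cross of S129/Jae and Cast mice. The F123 cells were untreated, and CAST is the paternal and S129 the maternal chromosome, so the comparison was made within the cells, between their alleles. The line is a single hybrid, without the reciprocal cross, so strain and parent of origin cannot be told apart. The cells had been kept on inactivated mouse embryonic fibroblasts in medium with LIF, a cytokine that maintains stem cells, and were passaged without feeders on gelatin before harvest.

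In mammals, imprinted genes are expressed from the chromosome of a particular parent, set by DNA methylation that the germ cells leave on a control region. In the mouse Dlk1-Dio3 cluster this region lies between Dlk1 and Meg3 and is methylated on the paternal chromosome. Dlk1, Rtl1 and Dio3, which encode proteins, are known to be expressed from the paternal chromosome, while the noncoding RNAs Meg3, Rian, B830012L14Rik and Mirg are transcribed from the maternal chromosome, together with many small nucleolar RNAs and microRNAs. The cluster is known in mESC cultures because the maternal RNAs can be lost in some lines.

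Allelic reads, those that cover a base differing between CAST and S129, had been summed over the variants of each record and over both replicates. No spread between replicates could therefore be computed, and intervals and standard errors below cover counting error only, while a read that covers several variants is counted at each. Of all records, 18632 had allelic reads, between 8 and 295934 with a median of 289, and CAST held 50.4% of all 16343693 of them. A record was called as allele-specifically expressed (ASE) with at least a 2-fold difference, an adjusted p of at most 0.05 in a two-sided exact binomial test (Benjamini-Hochberg over all 18632 records) and a TPM of at least 1. TPM is the transcript level scaled for transcript length and library size, here from reads over exons and introns. All 8 stem cell markers were expressed, at 12.1 to 380.8 TPM with a sum of 1283 TPM. Of 10 embryonic fibroblast markers, 3 reached a TPM of 1 (Thy1 3.06, Fbln1 2.04 and Col1a2 1.005 TPM), the range was 0.0260 to 3.06 TPM with a sum of 7.70 TPM, and Lum, Dcn and Twist2 were below 0.04 TPM (0.0369, 0.0363 and 0.0260 TPM).

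The 4 noncoding RNAs were all expressed and carried more S129 than CAST reads, and Rtl1 did too. Of the 6 members with allelic reads, 4 were called as ASE, Meg3, Rtl1, Rian and B830012L14Rik, all higher on S129 and none higher on CAST. For comparison, 12.1% of all tested records were called in either direction and 4.94% were called higher on S129. Each of the 6 members had a CAST share below 50%, and 5 of the 6 had an unadjusted p under 0.05. Among all 18632 tested records, 8912 were below 50% and 9557 had an unadjusted p under 0.05, so these counts alone say little about the members. The test takes reads as independent, and the 4 calls held with an assumed intra-gene correlation of 0.01 but became 0 at 0.05. With reads divided by the number of variants of a record, as if each read covered all of them, 2 calls were left, Meg3 and Rian. Meg3 has 1 variant, so the division left its reads unchanged and was no check of its call. The median log2 fold change of CAST over S129 was -1.08 over the 6 members, against 0.01 over all tested records. Summed over the members, CAST had 2891 and S129 had 6620 reads, a CAST share of 30.4%. In RNA from many cells, use of both alleles in every cell and a mixture of cells that use either allele cannot be told apart, nor can fewer cells with a transcript and less RNA per cell.

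**Figure D1:**
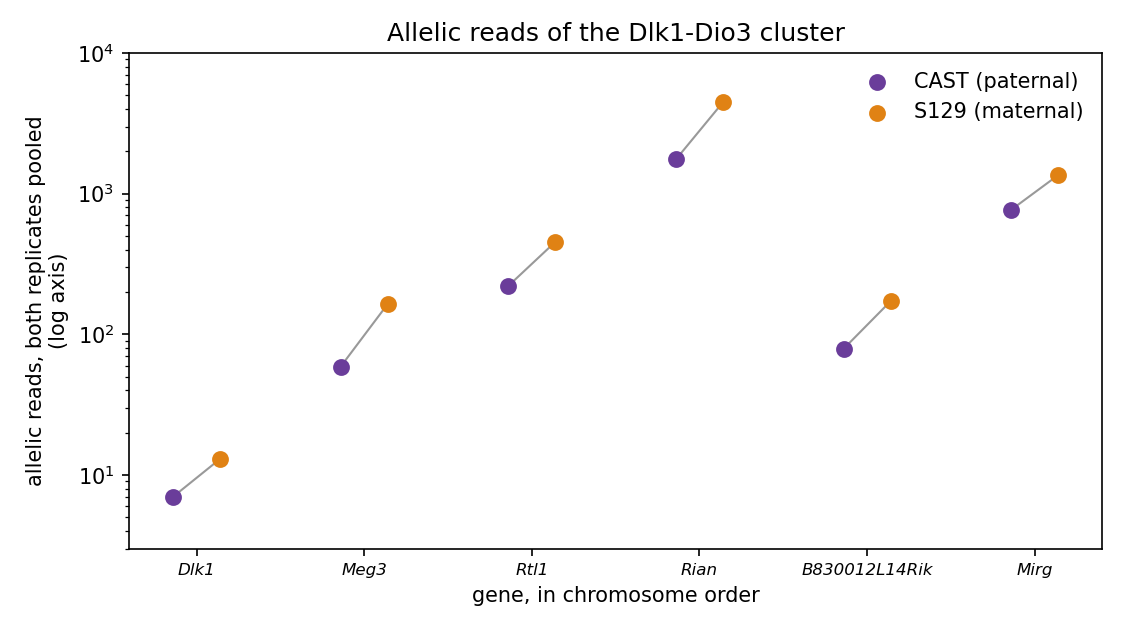
Allelic reads (log axis, both replicates pooled) of the 6 cluster records with variants, in chromosome order, with the CAST count left of the S129 count of each gene. Every S129 point lies above its CAST point, from 7 CAST against 13 S129 reads for Dlk1 to 1756 CAST against 4461 S129 reads for Rian.

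Meg3, a maternally expressed long noncoding RNA that lies next to the control region, was the most abundant member at 130.8 TPM, and only 406 of the 17956 expressed records (2.26%) had a higher TPM. Its record (ENSMUSG00000021268, plus strand, chr12:109549255-109549775 in mm10) was a transcript of 2 exons that covers 0.52 kb of the 30.7 kb gene, or 1.70%. As TPM is scaled for transcript length, the level and rank are those of this short record, not of the whole Meg3 gene. A single variant, in an exon, gave 59 CAST and 164 S129 reads. The CAST share was 26.5% (95% exact interval 20.8 to 32.8%), the lowest of the 6 members with reads. On the log2 scale CAST over S129 was -1.47 (SE 0.22, exact binomial adjusted p = 9.55e-12), or 2.78-fold more S129 reads. All of Meg3's allelic values thus rested on 1 position.

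The start of the Meg3 gene lies upstream of this short record. It is shown because the KRAB zinc finger protein ZFP57 binds the methylated hexamer TGCCGC at imprinted control regions, and the promoter window (RefSeq, GRCm38.p6, 250 bases before to 50 after the start, chr12:109540746-109541045, plus strand) holds this motif in capitals, as its reverse complement:

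Meg3 promoter: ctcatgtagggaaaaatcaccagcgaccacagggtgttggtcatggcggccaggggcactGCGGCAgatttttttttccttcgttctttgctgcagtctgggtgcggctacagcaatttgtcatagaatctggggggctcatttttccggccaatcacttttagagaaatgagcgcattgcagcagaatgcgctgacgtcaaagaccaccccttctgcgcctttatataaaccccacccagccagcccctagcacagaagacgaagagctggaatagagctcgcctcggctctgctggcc

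TGCCGC, searched on both strands, occurred in 3813 of 32851 RefSeq promoter windows of the same length (11.6%). Of 6 windows of 5 member genes, the window above was the only match, and 6 windows are too few to set against that share. The matching window held 13 CpG dinucleotides and 53.7% G and C, against a median of 7 CpG over all windows. Fewer CpG were found in 62.1% of all windows. The windows of Dio3, Mirg and Dlk1 had 25, 10 and 9 CpG, that of Rian had 0, and a window at another Meg3 start had 1. The motif is a match of letters, and neither methylation nor binding was measured here. The sequence of the control region between Dlk1 and Meg3 was not searched.

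Rian, the host RNA of a large array of small nucleolar RNAs, had the most allelic reads of the cluster. Its record (ENSMUSG00000097451, plus strand, chr12:109617911-109646724) spanned 28.8 kb, 49.9% of the gene, and carried 107 variants, 89 in exons and 18 in introns. CAST had 1756 and S129 had 4461 reads, a CAST share of 28.2% (27.1 to 29.4%). The log2 fold change was -1.35 (SE 0.04, exact binomial adjusted p = 5.24e-264), or 2.54-fold more S129 reads. Rian had 24.6 TPM over exons and introns and 6.03 TPM over exons alone. The exon value was thus 24.6% of the whole value, unlike that of Meg3, where 128.9 TPM over exons was 98.6% of it. These percentages are not shares of reads in exons, since for Dio3 the exon value was the higher one (2.69 against 2.20 TPM).

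B830012L14Rik, a noncoding RNA between Rian and Mirg whose function is little known, was the least abundant of the 4 noncoding members at 4.08 TPM. Its record (ENSMUSG00000098202, plus strand, chr12:109695586-109702587) had 3 exonic and 8 intronic variants with 79 CAST and 172 S129 reads. The CAST share of 31.5% (25.8 to 37.6%) corresponded to a log2 fold change of -1.12 (SE 0.20, exact binomial adjusted p = 2.47e-08). B830012L14Rik was called higher on S129, at 2.18-fold.

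Mirg, the host RNA of a large microRNA cluster, was close to Rian in level, with 25.3 TPM over exons and introns. Over exons alone Mirg had 24.7 TPM, or 97.6% of the whole value. Its record (ENSMUSG00000097391, plus strand, chr12:109743801-109749458) covered 5.66 kb, 28.7% of the gene. The record had 25 variants, 769 CAST and 1356 S129 reads, and a CAST share of 36.2% (34.1 to 38.3%). The log2 fold change was -0.82 (SE 0.07, exact binomial adjusted p = 3.76e-36), so that Mirg passed the test but, at 1.76-fold, not the fold minimum. Mirg was therefore not called as ASE, although more reads stood behind its value than behind those of Meg3, Rtl1 and B830012L14Rik.

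Rtl1, a gene derived from a retrotransposon that is needed for placental function and known as paternally expressed, also had more S129 reads. Its record (ENSMUSG00000085925, minus strand, chr12:109589193-109600330) had 7 exonic and 12 intronic variants with 221 CAST and 454 S129 reads. The CAST share was 32.7% (29.2 to 36.4%) and the log2 fold change -1.04 (SE 0.12, exact binomial adjusted p = 2.09e-18), 2.05-fold more S129 reads and just past the fold minimum. Rtl1 was listed at 13.3 TPM over exons and introns, yet at 0 over exons. This was 1 of 37 expressed records (TPM of at least 1) with an exon value listed at 0, although the table gives 7 variants in the exons of Rtl1.

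The maternal chromosome is known to carry a transcript on the opposite strand of Rtl1, the source of microRNAs that are complementary to the Rtl1 mRNA. RefSeq placed 6 microRNA hairpins with 11 mature sequences on the plus strand of the Rtl1 record, all within its coding sequence (chr12:109590172-109595403), and 1 further hairpin, Mir3071, on the minus strand. The library kit kept strand, but neither allelic counting nor the counting behind TPM is stated to have used it. Reads of Rtl1 and of its antisense partner can therefore not be told apart, at the same variants or in the TPM. The mature sequences are shown because they mark this antisense transcript within the Rtl1 record. Bases 2 to 8, the seed that pairs with targets, are in capitals, and the 11 seeds were all different:

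miR-431-5p: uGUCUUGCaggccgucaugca
miR-431-3p: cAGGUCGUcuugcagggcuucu
miR-433-5p: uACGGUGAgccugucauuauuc
miR-433-3p: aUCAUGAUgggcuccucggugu
miR-127-5p: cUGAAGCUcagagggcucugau
miR-127-3p: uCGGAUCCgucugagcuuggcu
miR-434-5p: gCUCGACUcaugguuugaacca
miR-434-3p: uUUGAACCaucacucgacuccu
miR-432: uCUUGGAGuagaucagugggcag
miR-136-5p: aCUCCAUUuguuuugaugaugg
miR-136-3p: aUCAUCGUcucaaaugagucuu

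Along the plus strand these begin with miR-431-5p (chr12:109590459-109590479) and end with miR-136-3p (chr12:109595366-109595387). The whole span from Dlk1 to Dio3 held 58 RefSeq hairpins, 54 of them on the plus strand, with 114 mature entries and 104 seeds. The Rian record held the hairpin of miR-370 and the Mirg record that of miR-3072. Mature microRNAs were not measured in these libraries.

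Dlk1, a transmembrane protein related to the Notch ligands and known as paternally expressed, was not expressed by the TPM threshold, with 0.471 TPM. Its record (ENSMUSG00000040856, plus strand, chr12:109452849-109463336) had 1 exonic variant with 7 CAST and 13 S129 reads. The CAST share was 35.0% with an interval of 15.4 to 59.2%, and the log2 fold change of -0.89 (SE 0.68, exact binomial adjusted p = 0.386) did not pass the test. A difference between the Dlk1 alleles was not detectable at this depth.

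Dio3, the deiodinase that inactivates thyroid hormones, was listed at 2.20 TPM (2.69 TPM over exons). Its record (ENSMUSG00000075707, plus strand, chr12:110279068-110281097) contained no counted variant, so the alleles of Dio3 could not be compared. Dio3 and Dlk1 were the 2 lowest members. By level, the order of the records was Meg3, Mirg, Rian, Rtl1, B830012L14Rik, Dio3 and Dlk1, with no replicate spread to tell neighbors apart. The place of Rtl1 is that of its record, whose level cannot be separated from that of the antisense transcript.

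**Figure D2:**
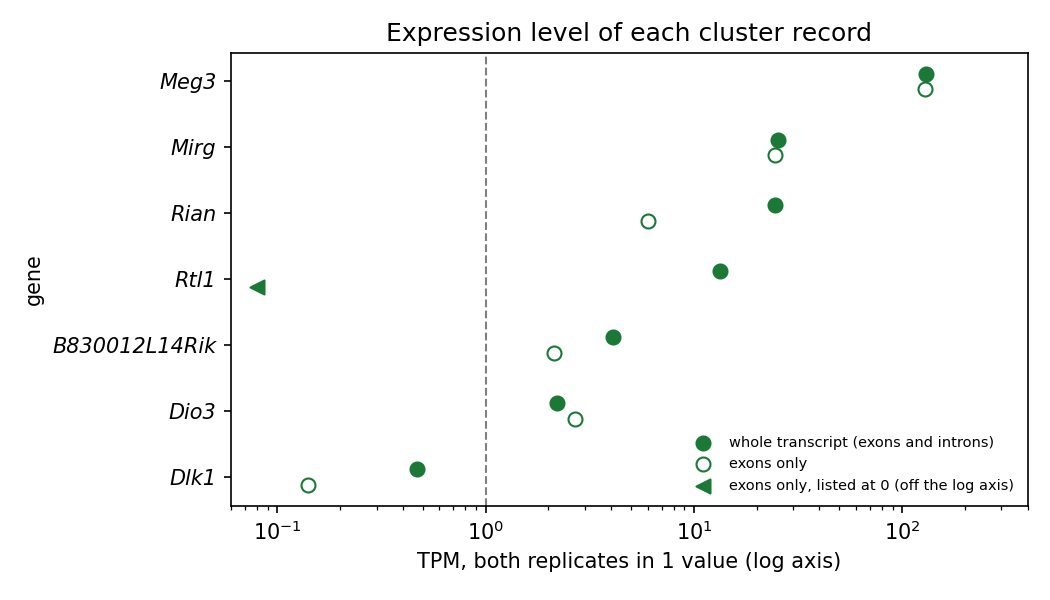
TPM of each of the 7 cluster records (log axis), over exons and introns (filled) and over exons only (open), with both replicates in 1 value and a dashed line at a TPM of 1. Meg3 lies highest at 130.8 TPM and Dlk1 lowest at 0.471 TPM, and the exon value of Rtl1 is listed at 0, off the axis.

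The CAST shares of the 6 members lay within 9.73 percentage points of each other, in the order Meg3, Rian, B830012L14Rik, Rtl1, Dlk1 and Mirg from low to high. Intervals for the difference of 2 shares were computed for all 15 pairs (Newcombe, 95%, not adjusted for the number of pairs). None of the 5 pairs of neighbors in this order differed beyond counting error. In 3 pairs the interval did not include 0. Mirg was above Meg3 by 9.73 points (3.26 to 15.5) and above Rian by 7.94 points (5.63 to 10.3), and Rtl1 was above Rian by 4.50 points (0.88 to 8.29). With the reads of each record divided by its number of variants, an alternative chosen after seeing the data that stands for reads counted several times, 0 of the 15 intervals left out 0.

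Within the cluster, neither of the protein-coding members with variants had more CAST than S129 reads. Dlk1 and Rtl1 together had 228 CAST and 467 S129 reads (32.8% CAST), of which Rtl1 supplied 221 CAST and 454 S129 reads that cannot be told apart from those of its antisense transcript. Meg3, Rian, B830012L14Rik and Mirg together had 2663 CAST and 6153 S129 reads (30.2% CAST). No member with at least 100 reads was close to a single allele, since the CAST shares of Meg3, Rian, B830012L14Rik, Rtl1 and Mirg were 26.5, 28.2, 31.5, 32.7 and 36.2%. The summed fibroblast marker level of 7.70 TPM stands beside these shares as the measure of feeder RNA, whose part in them was not tested.

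CAST shares like those of the members also occurred elsewhere among records with at least 100 allelic reads. Of 12915 such records, 9352 (72.4%) had a CAST share between 40 and 60% and 1593 (12.3%) had one below 40%. A CAST share at or below that of Meg3 was found in 294 of these records, and at or below that of Rian in 360. The corresponding numbers were 528 for B830012L14Rik, 623 for Rtl1 and 959 for Mirg. Between 26 and 37%, where these 5 members lay, there were 773 records.

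**Figure D3:**
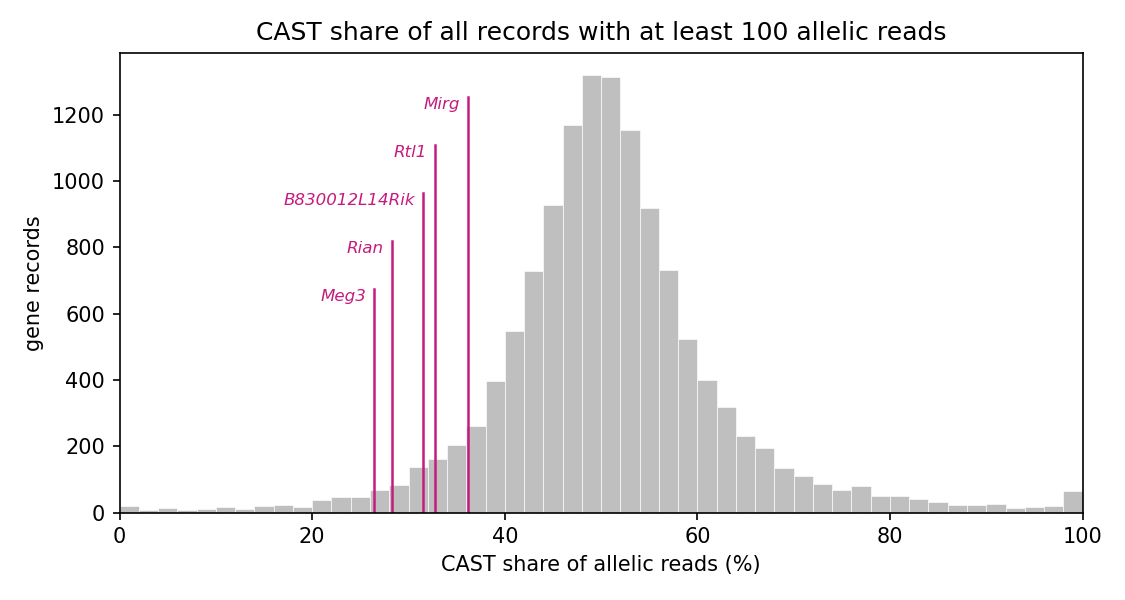
Number of gene records by CAST share of allelic reads (%), for the 12915 records with at least 100 allelic reads, with lines at the 5 cluster records of that depth. The lines lie at 26.5 to 36.2%, left of the 72.4% of records with a share between 40 and 60%.

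The cluster was compared with its surroundings to see whether the lower CAST share went on beyond it. Between Dlk1 and Dio3, a span of 828.2 kb, lay 8 further records, all of noncoding RNAs and none expressed. Among these, only Gm34081 (minus strand, chr12:109493529-109516740, between Dlk1 and Meg3) had allelic reads. Gm34081 had 4 CAST and 18 S129 reads at 2 intronic variants, a CAST share of 18.2% (5.19 to 40.3%) and a log2 fold change of -2.17 (SE 0.80, exact binomial adjusted p = 0.0111). With 0.494 TPM it was not called. Dio3os, the antisense RNA next to Dio3, was listed at 0.301 TPM without variants, like 4930511J24Rik, Gm34667, Gm34719, 3110009F21Rik, Gm34785 and Gm40576, which had no variants and were lower still.

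Within 1 Mb on either side of the span, 26 records of 23 genes had allelic reads, and 0 of the 26 were called, against 12.1% of all tested records, while 11 had an unadjusted p under 0.05 in the exact binomial test, as did 9557 of all 18632. With a 1.5-fold minimum, 6 of the 26 were called, without a share over all tested records at that minimum to set beside it. With flanks of 2 Mb, 1 of 56 tested records was called. Of these 26, 12 had a CAST share below and 13 above 50%, with a median log2 fold change of 0.05 against -1.08 for the cluster members. The 17 expressed records with at least 100 reads had CAST shares of 38.0 to 66.3% with a median of 55.6%, and 1 of the 17 was below 40%, against 5 of 5 in the cluster. In sum, the flanks had 22291 CAST and 15400 S129 reads (59.1% CAST). Of these, Hsp90aa1 alone supplied 9535 CAST and 4842 S129 reads. Chromosome 12 had 311226 CAST and 299764 S129 reads (50.9% CAST). These sums count overlapping records of the same gene separately.

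On the Dlk1 side the nearest expressed genes with reads were Wdr25, Wars, Slc25a47 and Yy1. Wars, a tryptophanyl-tRNA synthetase 558.7 kb from the span, had 2866 CAST and 2218 S129 reads, a CAST share of 56.4% (55.0 to 57.7%). Yy1, a zinc finger transcription factor, had 851 CAST and 877 S129 reads, a CAST share of 49.2% (46.9 to 51.6%). Both therefore lay above Meg3, Rian, Rtl1, B830012L14Rik and Mirg. Wdr25 (21 CAST and 35 S129 reads, 37.5% CAST) and Slc25a47 (11 CAST and 17 S129 reads, 39.3% CAST) had few reads, and the adjusted p of Wdr25 was 0.147 and that of Slc25a47 0.474. The CAST shares of 5 members were below that of Wars by intervals that left out 0, from a difference of -20.2 points for Mirg (-22.6 to -17.7) to -29.9 points for Meg3 (-35.4 to -23.6). For Dlk1 the difference was -21.4 points (-38.3 to 0.385).

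On the Dio3 side the nearest 2 expressed genes with reads, Ppp2r5c and Gm19605, also had CAST shares below 40%. Ppp2r5c, a regulatory subunit of protein phosphatase 2A that lies 166.0 kb beyond Dio3, had 12 CAST and 21 S129 reads, a CAST share of 36.4% (20.4 to 54.9%). Gm19605, a noncoding RNA 193.4 kb beyond Dio3, had 41 CAST and 67 S129 reads, a share of 38.0% (28.8 to 47.8%) and a log2 fold change of -0.71 (SE 0.29, exact binomial adjusted p = 0.0352). Neither reached the 2-fold minimum. Meg3 was below Gm19605 by a difference of -11.5 points (-22.3 to -0.939) and Rian by -9.72 points (-19.2 to -1.05), whereas the intervals of Rtl1, B830012L14Rik, Mirg and Dlk1 against Gm19605 included 0. The next genes were B930059L03Rik, a noncoding RNA with 95 CAST and 55 S129 reads (63.3% CAST), and Dync1h1, the heavy chain of cytoplasmic dynein, with 3752 CAST and 3405 S129 reads (52.4% CAST).

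**Figure D4:**
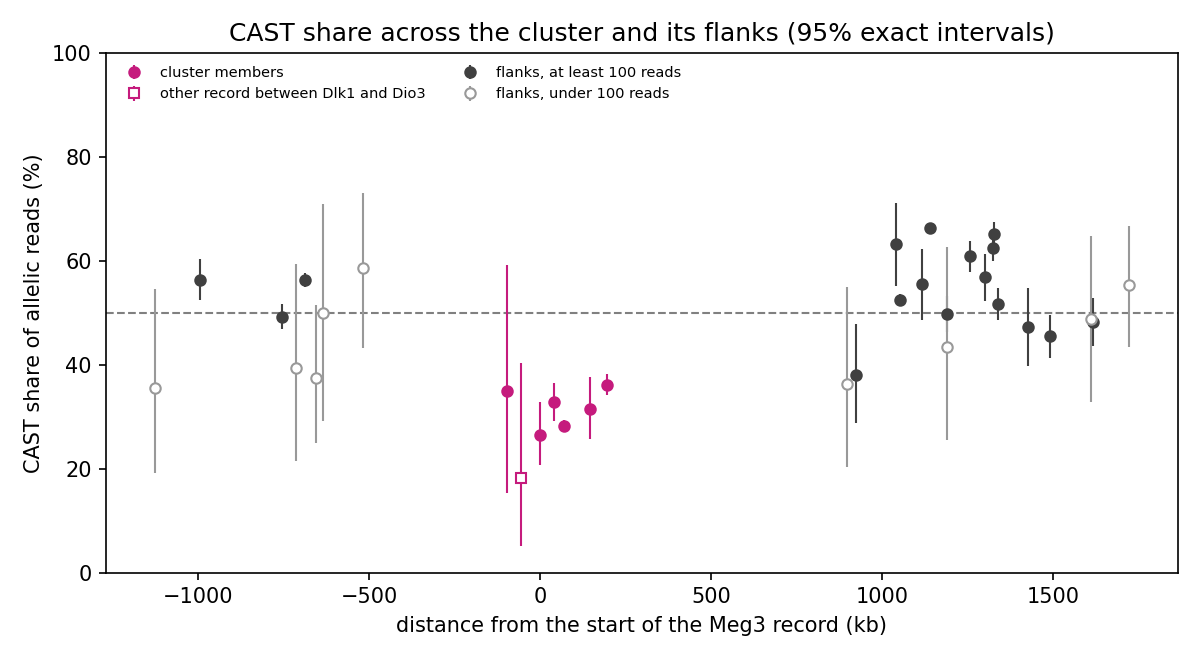
CAST share of allelic reads (%) of each record by its distance from the start of the Meg3 record (kb), with 95% exact intervals and a dashed line at 50%, for the cluster members, Gm34081 (square) and the flanks of 1 Mb. The members lie between 26.5 and 36.2%, and the flanking records with at least 100 reads between 38.0 and 66.3%. Flanking records with fewer reads reach down to 35.5% (Eml1, 31 reads), within the range of the members.

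All 164 variants of the members carried the reference base on S129 and the other base on CAST. The same was true of all 613 variants of the flanks, whose median CAST share was 50.9%, while 11.1% of the variants of all records had the other base on S129. The density of variants ranged from 0.0954 per kb in Dlk1 to 4.42 per kb in Mirg, with 1.57 in B830012L14Rik, 1.71 in Rtl1, 1.92 in Meg3 and 3.71 in Rian. Mirg, with the densest variants, had the highest CAST share of the members (36.2%), but Dlk1, with the sparsest, had the next highest (35.0%). An effect of the reference base on these shares was not tested.

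Genes that act on imprints were taken as a list of 20, since ZFP57 and its cofactor TRIM28 protect the methylated control region, DNMT1 copies methylation after replication, and AFF3 is known to bind imprinted control regions in mESCs. Of their 32 records, 28 were expressed, all 32 had allelic reads, and 1 was called, against 12.1% of all tested records, with a median log2 fold change of 0.04. Trim28 had 430.5 TPM, Zfp57 143.0 TPM, Dnmt1 42.6 TPM, and Dppa3, a protein that binds chromatin and protects maternal methylation in the zygote, 41.6 TPM. Zfp445, a further zinc finger protein of imprinted regions, had 10.8 TPM, and Aff3 0.344 TPM. Zfp57, Trim28, Dnmt1, Dppa3 and Zfp445 thus passed the TPM threshold of 1, while Aff3, with 47 CAST and 35 S129 reads, was below it.

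Allelic depth differed widely in this list. Zfp57 had 10 CAST and 6 S129 reads at 2 variants, Zfp445 had 57 CAST and 64 S129 reads, and Dppa3 had 580 CAST and 664 S129 reads. The called record was the noncoding record of Jarid2, a Polycomb cofactor, with 4817 CAST and 1955 S129 reads (71.1% CAST, log2 fold change 1.30, exact binomial adjusted p = 8.71e-271). Its protein-coding record overlaps it and had 6068 CAST and 3170 S129 reads (65.7% CAST, log2 fold change 0.94), so the reads of the Jarid2 records are not separate measurements. The Jarid2 call was lost at intra-gene correlations of 0.05 and 0.1, with reads divided by the number of variants, with a 4-fold minimum and when only the record with most reads of each gene was kept. Called higher on S129, the allele with more reads in the cluster, were 0 of the 32 records, against 4.94% of all tested records. Of the 32, 13 had a CAST share below 50% and 18 had one above it. Records of the same gene can share reads, and the Aff3 records hold the same 47 CAST and 35 S129 reads. The counts of records in this list are therefore not counts of separate measurements.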

How the data were processed

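Total RNA-seq of F123 mESCs was analyzed from the deposited table, in which both replicates are pooled. Per the labels and the study's methods, read pairs of 75 bases were aligned by the authors to mm10 (GRCm38.p6, Ensembl 98) with STAR, version 2.7.2c, given the F123 variants, and duplicates were discarded (Picard MarkDuplicates, version 2.21.1). The allelic read counts are the authors' output of GATK ASEReadCounter, version 4.1.3.0, summed over a gene's variants. A variant needed 20 reads by the methods, whereas some records hold as few as 8. The deposited TPM values were scaled by the authors for length and library size from HTSeq counts (mapping quality of 10 or more). Deposited p-values, adjusted p-values, allelic ratios, log2 fold changes and classes of the authors were not used.

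CAST and S129 counts were compared per record by a two-sided exact binomial test against 0.5, with Benjamini-Hochberg adjustment over 18632 records, as in the study's methods. Since replicates are pooled, p-values measure these reads only, not the spread between cultures. Intervals are Clopper-Pearson for shares and Newcombe for differences (95%), and standard errors follow from the counts. The test was checked on simulated data with known answers, drawn with independent reads, so the check does not cover correlated reads. Alternatives changed the null share, the independence of reads, minimum depth, thresholds and flanks. Named genes were all members, other records of the span with reads or a TPM of at least 1, the 4 nearest expressed genes with reads on each side, any called record, and Zfp57, Trim28, Dnmt1, Dppa3, Zfp445 and Aff3. The marker lists, promoter and microRNA windows and other span records were described as well. Members, lists and tests were chosen with earlier results of these data known. Gene models were matched to GENCODE M21 (7 genes, 6 of 7 transcripts), and sequences came from RefSeq tables of the same build. Scripts ran in Python 3.11.15 with scipy 1.17.1, pandas 2.3.3 and numpy 2.4.6, and plots were drawn with matplotlib 3.10.9.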

Additional observations from a re-analysis of the deposited data

How the results depend on the processing

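The 4 calls of the cluster depended on how far reads are taken as independent. All 4 held with an intra-gene correlation of 0.01, and 0 were called at 0.05 and 0 at 0.1. At 0.05, the adjusted p for Meg3 (log2 fold change -1.47), Rtl1 (-1.04), Rian (-1.35) and B830012L14Rik (-1.12) was 0.458, 0.889, 0.513 and 0.847, and at 0.1 it was 1 for each with the same fold changes. With reads divided by the number of variants, 2 were called (Meg3 and Rian), and Rtl1 (-1, exact binomial adjusted p = 0.446) and B830012L14Rik (-1.19, exact binomial adjusted p = 0.556) were not. For records with many variants this division overstates repeated counting, as it takes each read to cover every variant. It left the reads of Meg3, with 1 variant, unchanged and was no check of that call. With a 4-fold minimum 0 were called. Over all alternatives the adjusted p reached from 1.21e-12 to 1 for Meg3, 1.85e-20 to 1 for Rtl1, 1.19e-286 to 1 for Rian, 3.53e-09 to 1 for B830012L14Rik, 4.23e-41 to 1 for Mirg and 0.280 to 1 for Dlk1. The other 13 alternatives gave within 1.5 times the 4 calls. No alternative could turn the direction of a member, since each left the counts as they were or changed both alleles alike. The list of imprint regulators gave 0 calls in place of 1 (Jarid2) at correlations of 0.05 and 0.1, with reads divided by variants, with a 4-fold minimum and with the deepest record of each gene, and 2 calls with a 1.5-fold minimum. The flanks gave 6 calls in place of 0 with a 1.5-fold minimum and 1 call among 56 tested records with flanks of 2 Mb. The calls at the 1.5-fold minimum have no share over all tested records beside them. The 3 pairs of members with different shares became 0 with reads divided by variants. Dlk1 had no value at a minimum of 100 reads. No paired analysis was possible because the deposited table pools both replicates, and for the same reason no replicate could be left out. Depth limited Dlk1, with 20 allelic reads, and Gm34081, with 22.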

Other observations

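Along the chromosome, the measured CAST share was below 40% in a run of 9 neighboring genes with allelic reads: Dlk1, Gm34081, Meg3, Rtl1, Rian, B830012L14Rik, Mirg, Ppp2r5c and Gm19605 (chr12:109452849-110486204), with 9674 reads in all. The 95% exact intervals of 4 of them crossed 40%, those of Dlk1 (20 reads, 15.4 to 59.2%), Gm34081 (22 reads, 5.19 to 40.3%), Ppp2r5c (33 reads, 20.4 to 54.9%) and Gm19605 (108 reads, 28.8 to 47.8%). Runs of at least 5 neighboring genes, all below 40% or all above 60% CAST, were counted over the table. There were 24 runs above 60% and 12 below 40%, and 2 of the 12 held 9 genes. The other run of 9 genes lay on chromosome 1 (chr1:20890606-23383175) with 2717 reads. Among the 12 runs below 40%, that of the Dlk1-Dio3 cluster had the most reads, the next having 6928. Rian supplied 6217 of its 9674 reads. Among the runs above 60%, 1 on chromosome 18 had 34134 reads and 1 on chromosome 8 held 10 genes. The highest CAST share in the flanks, looked up after the values were seen, was that of Hsp90aa1, a cytosolic chaperone. Hsp90aa1 had 9535 CAST and 4842 S129 reads, a CAST share of 66.3% and a log2 fold change of 0.98, just under the 2-fold minimum.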
